A study of Caenorhabditis elegans with 2 samples.

Results

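Binding of the Hox protein LIN-39 was examined at 43 genes of the Wnt pathway and of Q neuroblast migration in Caenorhabditis elegans. The genes were chosen by name and located in the Ensembl annotation of the WBcel235 genome, where all 43 were found among 19973 protein-coding genes of the nuclear chromosomes. They comprise 5 Wnt ligand genes, the Wnt secretion gene mig-14, 6 receptor genes, 13 intracellular Wnt genes, 15 guidance genes and 3 genes of neuroblast fate or division. Strain OP18 was studied as whole larvae at stage L1, the earliest larval stage, with the sexes pooled, by chromatin immunoprecipitation and sequencing (ChIP-seq). This strain carries the unc-119(ed3) allele on chromosome III and the integrated transgene wgIs18, from which eGFP-tagged LIN-39 is made. There was 1 group with 2 biological replicates, and no untagged or wild-type worms were analysed here, so all comparisons are between genes. Whole animals hold many cell types, and the lists do not show in which cells a region was bound.

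The Q neuroblasts are a left and right pair of cells on the flanks of the larva whose descendants crawl in opposite directions, the left ones toward the tail and the right ones toward the head. Wnt ligands from the tail act through Frizzled receptors, Dishevelled and the beta-catenin BAR-1 to switch on the Hox gene mab-5 in the left lineage, while lin-39 is active in the right lineage and promotes its forward movement. MIG-13, a transmembrane protein with CUB and LDL-receptor repeats, is known to act downstream of lin-39 in this forward migration.

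For each gene, every summit inside it or within 5000 bp of it, called in reach from here on, was taken from 4 deposited lists. They were the 1488 optimal peaks, which the submitters thresholded for reproducibility as a set, and lists of 30000 ranked regions. Those ranked lists were of both replicates pooled, of replicate 1 and of replicate 2. The deposited signal value has no stated scale, and rank 1 is the strongest region of a list. Signal scales differ between lists, and the highest was 388 in replicate 1 and 231 in replicate 2. Replicates were therefore set side by side by rank. The lists give no read numbers, so sequencing depth is unknown. The 1488 optimal peaks were the 1488 strongest regions of the pooled list, and the replicates shared 0 regions with identical coordinates.

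Sequences around a few summits are printed to show the DNA under the peaks. The 201 bases centred on the summit are given for mig-13, for which lin-39 is a known regulator, and for the 6 strongest optimal summits that had the gene's own start as their nearest start, lay clear of untranslated regions and could be printed. They are plus-strand sequence of RefSeq's copy of WBcel235, with the homeodomain core TAAT, on either strand, in capitals.
mig-13 at chrX:4802373-4802573: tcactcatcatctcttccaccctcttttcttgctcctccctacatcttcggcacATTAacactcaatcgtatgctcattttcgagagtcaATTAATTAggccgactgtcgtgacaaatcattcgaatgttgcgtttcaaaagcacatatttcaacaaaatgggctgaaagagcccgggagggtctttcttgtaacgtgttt
cwn-2 at chrIV:10065250-10065450: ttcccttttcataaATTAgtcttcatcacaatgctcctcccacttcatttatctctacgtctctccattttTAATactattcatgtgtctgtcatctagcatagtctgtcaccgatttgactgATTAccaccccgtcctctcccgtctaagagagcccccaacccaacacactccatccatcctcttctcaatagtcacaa
cam-1 at chrII:9307074-9307274: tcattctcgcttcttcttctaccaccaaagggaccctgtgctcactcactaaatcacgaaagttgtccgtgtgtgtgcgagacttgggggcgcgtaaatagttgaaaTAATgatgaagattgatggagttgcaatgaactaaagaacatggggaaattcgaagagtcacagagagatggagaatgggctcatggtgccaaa
mig-5 at chrII:8185110-8185310: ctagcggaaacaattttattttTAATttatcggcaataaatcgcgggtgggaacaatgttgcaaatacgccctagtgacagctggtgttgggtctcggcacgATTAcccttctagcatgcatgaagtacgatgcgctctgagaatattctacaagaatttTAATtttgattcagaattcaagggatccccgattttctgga
wrm-1 at chrIII:5722046-5722246: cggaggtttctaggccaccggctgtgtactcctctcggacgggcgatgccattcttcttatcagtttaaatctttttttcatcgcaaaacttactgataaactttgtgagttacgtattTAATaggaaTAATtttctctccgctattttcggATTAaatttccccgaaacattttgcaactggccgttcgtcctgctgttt
ptp-3 at chrII:10982217-10982417: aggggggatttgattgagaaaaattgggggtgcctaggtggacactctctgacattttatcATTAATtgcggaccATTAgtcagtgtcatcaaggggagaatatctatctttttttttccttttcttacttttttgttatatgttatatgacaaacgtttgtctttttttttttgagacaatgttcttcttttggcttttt
pig-1 at chrIV:519501-519701: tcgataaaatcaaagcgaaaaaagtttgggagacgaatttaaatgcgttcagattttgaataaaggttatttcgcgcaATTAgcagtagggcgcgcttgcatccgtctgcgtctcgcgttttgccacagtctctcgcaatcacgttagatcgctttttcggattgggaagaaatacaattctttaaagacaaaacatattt
The mig-13 window held 4 such cores, and 3 of them overlap in a run beside the summit that contains the palindrome TAATTA. None of the other 6 windows printed here holds that palindrome, but the window of lin-22, which is not printed, does. The windows of cwn-2, mig-5, wrm-1 and ptp-3 held 3 cores each, and those of cam-1 and pig-1 held 1 each. A match is a description of the letters and not evidence of contact by LIN-39.

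Of the 43 genes, 15 had at least 1 optimal summit inside the gene or within 5000 bp (34.9%), against 19.4% of all protein-coding genes. These 15 genes had 16 optimal summits. The genes are long, with a median of 4732 bp against 2027 bp over all protein-coding genes, so more sequence was searched per gene. Among the 21 of the 43 genes with a length between their own quartiles (3228 and 11326 bp), 7 had an optimal summit (33.3%), against 24.2% of protein-coding genes in that range. Per length of sequence searched, there were 2.01 optimal summits per 100 kb around the 43 genes and 1.51 per 100 kb around all protein-coding genes. No test was made of these shares, since the genes were chosen with earlier results of these data known.

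A summit within 5000 bp of a gene may lie at the start of a neighbour. The gene's own start was the nearest protein-coding start for 8 of the 16 summits, at cwn-2, cam-1, mig-5, wrm-1, mig-13, ptp-3, lin-22 and pig-1. These 8 genes are 18.6% of the 43, while 6.89% of all protein-coding genes had the start nearest to some optimal summit. With only summits within 2000 bp of the start counted, the gap was small, with 3 of the 43 genes (6.98%), against 5.48% of all protein-coding genes. Of the 15 genes with an optimal summit in reach, these 8 are 53.3%, against 34.7% of all protein-coding genes with an optimal summit in reach. The remaining 8 summits, at mom-2, mom-5, sys-1, gsk-3, dpy-19, mig-10 and unc-34, were nearer to the start of another gene. Of the 16 summits, 13 were intergenic, 2 were in introns and 1 was in a coding exon, and 9 lay upstream, 5 downstream and 2 inside the gene in question.

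**Figure D1:**
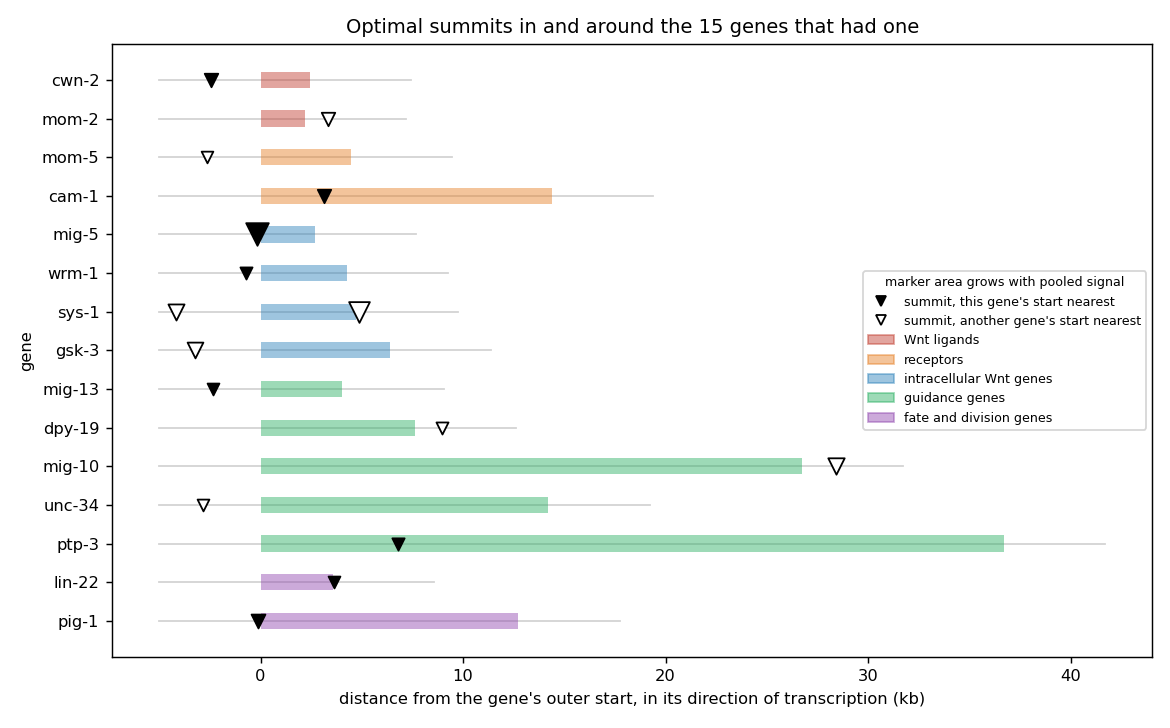
Position of the 16 optimal summits (triangles, area growing with pooled signal) relative to the outer start of each of the 15 genes that had one, in kb along the direction of transcription. Coloured bars are the genes, to scale and coloured by class, and grey lines are the searched flanks of 5000 bp. Filled triangles mark the 8 summits whose nearest protein-coding start is that of the gene shown, and the largest triangles are at mig-5 and sys-1.

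Among the 5 Wnt ligand genes, cwn-2 and mom-2 had an optimal summit. The cwn-2 summit lay 2466 bp upstream of the start, at chrIV:10065350, in intergenic sequence with the start of ipla-7 at nearly the same distance (2501 bp). Its pooled signal was 95.0 (rank 566), with 44.7 in replicate 1 (rank 892) and 50.7 in replicate 2 (rank 364). The mom-2 summit lay 1149 bp past the end of the gene, at chrV:8359334, and 171 bp from the start of mpdu-1, a gene named for dolichol-linked mannose use. Its pooled signal was 93.9 (rank 578), with 69.5 in replicate 1 (rank 408) and 23.8 in replicate 2 (rank 1461). Thus both replicates placed a region there, but its rank was higher in replicate 1, whereas that of cwn-2 was higher in replicate 2. mom-2 encodes the Wnt of embryonic endoderm induction, and cwn-2 encodes a Wnt with roles in neuron migration and axon outgrowth.

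The other 3 ligand genes had weaker regions. At egl-20, the Wnt that sets the posterior course of the left Q lineage, the strongest pooled region (signal 25.6, rank 6525) lay 2525 bp upstream in a coding exon of the neighbour catp-6. Replicate 1 had an overlapping region there (rank 9183) and replicate 2 had none, its own best region lying 625 bp past the gene (rank 10531). At lin-44, the Wnt that orients polarity of tail cells, the best pooled region was in the 3' UTR (signal 27.8, rank 5122), with rank 2050 in replicate 1 and none overlapping in replicate 2, whose best region was in an intron (rank 12906). At cwn-1 the best pooled region lay 685 bp past the gene end (signal 37.6, rank 2453), with rank 2730 in replicate 1, while the best region of replicate 2 lay elsewhere, in an exon (rank 14331). So at each of these 3 ligand genes the leading pooled region was seen in replicate 1 alone. The secretion gene mig-14, the worm Wntless, had its best pooled region in an intron (signal 24.3, rank 7541), again with an overlapping region in replicate 1 only (rank 13734).

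Of the 6 receptor genes, cam-1 and mom-5 had an optimal summit. The cam-1 summit lay in an intron, at chrII:9307174, 3130 bp into this gene of 14390 bp and 2321 bp from the start of its transcript C01G6.8b.1. cam-1 encodes a Ror-type receptor tyrosine kinase that binds Wnts and acts in neuron migration. The pooled signal was 92.6 (rank 592), with 52.9 in replicate 1 (rank 692) and 43.6 in replicate 2 (rank 477). The next nearest protein-coding start was 11356 bp away, so no other start competed for this summit. At mom-5, a Frizzled gene, the summit lay 2648 bp upstream but 949 bp from the start of algn-10, a glycosylation gene. It had a pooled signal of 59.6 (rank 1158), with 25.7 in replicate 1 (rank 2411) and 38.1 in replicate 2 (rank 603). Among the strongest 1488 regions of replicate 1 alone, mom-5 had none, which leaves 1 of 6 receptor genes.

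The other 4 receptor genes had no optimal summit. Their best pooled ranks were 2783 at cfz-2, 3538 at lin-17, 3705 at lin-18 and 5418 at mig-1. cfz-2, lin-17 and mig-1 encode Frizzled proteins, and lin-18 encodes the Ryk receptor. The mig-1 region lay 76 bp upstream of the start (signal 27.3), with ranks of 10339 in replicate 1 and 3964 in replicate 2, and the best region of replicate 1 was in an intron (rank 4206). The lin-18 region lay 2281 bp upstream (signal 31.3) with ranks of 25701 in replicate 1 and 2173 in replicate 2, and the best region of replicate 1 lay 260 bp upstream (rank 7171). The leading cfz-2 region, in an intron (signal 35.6), had no overlapping region in replicate 1 and rank 27070 in replicate 2, and the best replicate regions lay upstream, 2139 bp away in replicate 1 (rank 9624) and 4444 bp away in replicate 2 (rank 6940). The leading region near lin-17 (signal 31.9) lay 2890 bp past the gene, in an intron of dnj-30, with rank 22456 in replicate 1 and nothing overlapping in replicate 2. The best lin-17 region of replicate 1 was in an intron (rank 5947), and that of replicate 2 lay 3600 bp upstream (rank 2578).

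The intracellular Wnt genes held the strongest summits of the set, with optimal summits at 4 of 13 genes. The strongest lay 187 bp upstream of mig-5, at chrII:8185210, with a pooled signal of 347 (rank 28). Replicate 1 gave 205 (rank 29) and replicate 2 gave 140 (rank 28), so the replicates placed it almost equally. mig-5 encodes a Dishevelled protein, which relays Frizzled signals. The start of cct-1, a chaperonin subunit gene, lay 233 bp from the same summit, so the region cannot be given to either gene alone. The other Dishevelled genes had no optimal summit. The best region at dsh-2 lay 277 bp upstream (signal 49.4, rank 1531, with 1863 in replicate 1 and 9416 in replicate 2), just past the last optimal peak. That at dsh-1 lay 2023 bp upstream (signal 27.7, rank 5192).

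The 4 beta-catenin genes differed in strength. wrm-1, which acts in asymmetric divisions, had an optimal summit 704 bp upstream, at chrIII:5722146, where no other start lay within 1000 bp. Its pooled signal was 67.4 (rank 977), with 49.1 in replicate 1 (rank 764) and 21.3 in replicate 2 (rank 1780), which is outside the strongest 1488 regions of replicate 2. sys-1, the divergent beta-catenin that works with the TCF protein POP-1, had 2 optimal summits in reach. The stronger lay 145 bp past its end and 256 bp from the start of the translation initiation factor gene eif-3.C (pooled signal 285, rank 45), with 180 in replicate 1 and 99.4 in replicate 2. The weaker lay 4199 bp upstream and 139 bp from the histone gene his-68 (pooled signal 153, rank 218), with 99.3 in replicate 1 and 60.5 in replicate 2. At the sys-1 start itself, the nearest pooled region lay 484 bp upstream with rank 6152. hmp-2, the beta-catenin of cell adhesion, had its best region 1329 bp upstream (signal 45.2, rank 1747). bar-1, the beta-catenin that carries the EGL-20 signal in the left Q lineage, had its best region 2776 bp upstream (signal 23.9, rank 7924), with ranks of 14006 in replicate 1 and 26757 in replicate 2. That was the weakest best pooled rank of the 13 intracellular Wnt genes.

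Of the other intracellular Wnt genes, gsk-3 had an optimal summit. The gsk-3 summit, at chrI:12815970, had a pooled signal of 146 (rank 247), with 70.9 in replicate 1 (rank 395) and 77.5 in replicate 2 (rank 133). It lay 3246 bp upstream of this kinase gene, in a coding exon of Y18D10A.4 and 66 bp from its start. Near the gsk-3 gene itself, the best pooled region was in an intron (signal 41.5, rank 2023), with ranks of 10721 in replicate 1 and 1110 in replicate 2. pry-1, the Axin gene, had its best region 359 bp upstream (signal 36.1, rank 2696), ranked 2043 in replicate 1 and 2490 in replicate 2. The remaining best pooled ranks were 3185 at pop-1, 3643 at apr-1 (the APC gene), 3751 at lit-1 (a Nemo-like kinase gene) and 6937 at kin-19 (a casein kinase 1 gene).

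Of the 15 guidance genes, 5 had an optimal summit. The mig-13 summit lay 2345 bp upstream of the gene, at chrX:4802473, in intergenic sequence with the next protein-coding start 9067 bp away. Its pooled signal was 62.9 (rank 1085), with 33.0 in replicate 1 (rank 1477) and 30.2 in replicate 2 (rank 957). This places it in the weaker part of the optimal set, whose median signal was 81.3 and whose lowest was 50.03. The other 5 pooled regions at mig-13 had ranks from 12565 to 29908. The strongest of these lay only 200 bp from the main summit and overlapped the same replicate regions, and the other 4 had no overlapping region in replicate 2.

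ptp-3, a LAR-type receptor phosphatase gene, had its summit in an intron 6778 bp from the outer start, at chrII:10982317, and 713 bp from the start of the transcript C09D8.1e.1. Its pooled signal was 70.5 (rank 908), with 32.4 in replicate 1 (rank 1548) and 37.7 in replicate 2 (rank 616). The mig-10 summit lay 1702 bp past the end of this lamellipodin-family gene, at chrIII:8307539, between the starts of F10E9.5 (53 bp) and F10E9.7 (98 bp). It was the strongest of the guidance class, with a pooled signal of 161 (rank 195), 93.6 in replicate 1 (rank 225) and 63.7 in replicate 2 (rank 217). dpy-19, which encodes a membrane protein of the initial Q cell polarity, had a summit 1330 bp past its end (pooled signal 66.0, rank 1008), with ranks of 809 in replicate 1 and 718 in replicate 2. The nearest protein-coding start there was that of F22B7.9, 4617 bp away. The summit 2827 bp upstream of unc-34, the Ena/VASP gene, had a pooled signal of 62.0 (rank 1102), with ranks of 1754 in replicate 1 and 823 in replicate 2, and the start of Y50D4C.12 was slightly nearer (2702 bp).

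The other 10 guidance genes had no optimal summit. unc-73, the Trio-type exchange factor gene, came closest, with an intronic region 863 bp from its start (signal 42.8, rank 1921) with rank 1454 in replicate 1 and 3232 in replicate 2. mig-2 and ced-10, both Rac-type GTPase genes, had best pooled ranks of 2768 and 4927. unc-40, the netrin receptor gene that polarises Q cells together with dpy-19 and mig-21, had a best pooled rank of 3430, and mig-21 had 4023. A region 208 bp upstream of unc-40 differed between the replicates, with rank 18190 in replicate 1 and 1255 in replicate 2. The kinesin-like gene vab-8 had rank 6675. The weakest best pooled ranks of the class were 9129 at the Fat-like cadherin gene cdh-4, 15155 at the ephrin gene efn-4, 17865 at the Flamingo gene fmi-1 and 19750 at the integrin gene ina-1. In replicate 2, better ranked regions lay elsewhere, in a coding exon of efn-4 (rank 2099) and in one of dgk-3, 240 bp past ina-1 (rank 2400). In replicate 1, the best ina-1 region lay 639 bp upstream (rank 6610).

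The genes of fate and division included 2 of 3 with an optimal summit. pig-1, a MELK-type kinase gene of asymmetric neuroblast division, had a summit 144 bp upstream, at chrIV:519601, with the next start 4208 bp away. Its pooled signal was 102 (rank 482), with 54.8 in replicate 1 (rank 666) and 43.4 in replicate 2 (rank 483). The lin-22 summit lay 81 bp past the end of this Hairy-type bHLH gene, at chrIV:3023385 (pooled signal 62.7, rank 1089), with 36.7 in replicate 1 (rank 1229) and 30.5 in replicate 2 (rank 942). lin-22 had 9 pooled regions in reach, 7 of which overlapped a region in both replicates. hlh-14, an achaete-scute-type bHLH gene, had its best pooled region 234 bp upstream with rank 19164 and no overlapping region in either replicate.

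**Figure D2:**
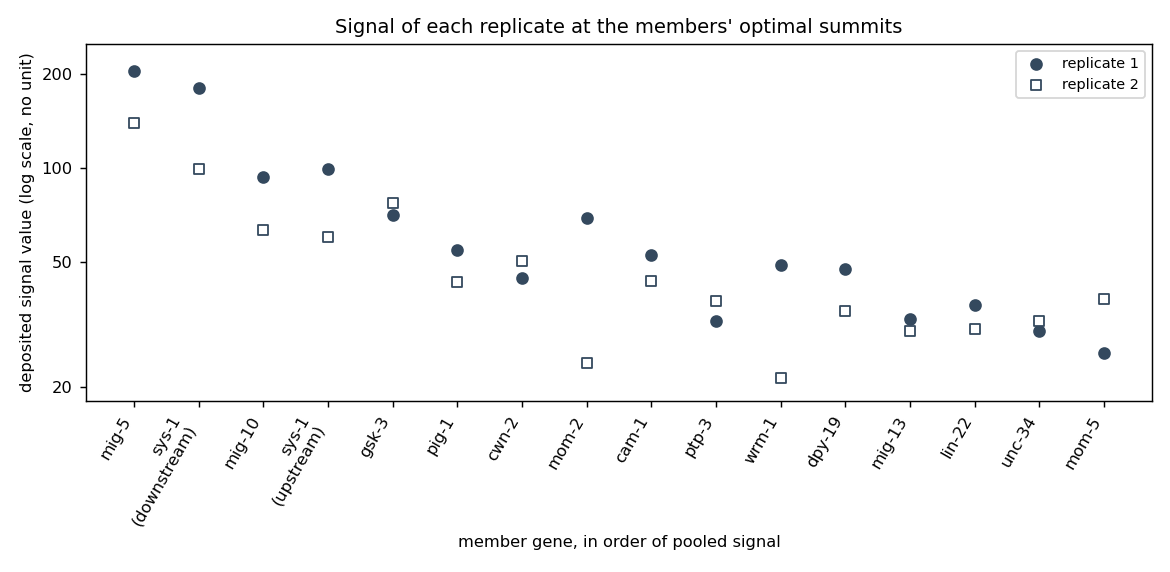
Deposited signal value (log scale, no unit) in replicate 1 (filled circles) and replicate 2 (open squares) at the 16 optimal summits in and around the genes, in order of pooled signal. The scales of the replicates differ, so the order within a replicate is what can be read: mig-5 is highest in both, while the lowest is mom-5 in replicate 1 (25.7) and wrm-1 in replicate 2 (21.3).

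The 4 larger classes were close to each other in the share of genes with an optimal summit. It was 40% of ligand genes (2 of 5), 33.3% of receptor genes (2 of 6), 30.8% of intracellular Wnt genes (4 of 13) and 33.3% of guidance genes (5 of 15), each above the 19.4% of all protein-coding genes. This direction turned in the strongest 744 optimal peaks for guidance genes (1 of 15, against 10.8%) and in replicate 1 alone for receptors (1 of 6, against 18.9%). With 5 ligand genes, 1 gene moves their share by 20 percentage points. Per length of sequence searched, there were 3.14 optimal summits per 100 kb at ligand genes, 2.32 at intracellular Wnt genes, 1.90 at receptor genes and 1.44 at guidance genes, the last below the 1.51 around all protein-coding genes. Guidance genes had the longest median length of these classes, 11667 bp.

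Ranks placed the 43 genes somewhat above the background, but without a match for gene length. The 43 genes are longer and held a median of 5 pooled regions in reach, against 3 over all protein-coding genes. More regions give a gene more chances of a high best rank. Every one of the 43 had at least 1 pooled region in reach, against 89.8% of all protein-coding genes, and the median best rank was 2783, against 5501 over all protein-coding genes with a region. By class, the median best pooled rank was 2453 for ligands, 2696 for intracellular Wnt genes, 3161 for receptors and 3430 for guidance genes. In replicate 1 the median over the 43 genes was 2636 and in replicate 2 it was 1999. The replicates differed in opposite directions at ligands, with medians of 2050 in replicate 1 and 10531 in replicate 2, and at receptors, with 5077 in replicate 1 and 2376 in replicate 2.

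**Figure D3:**
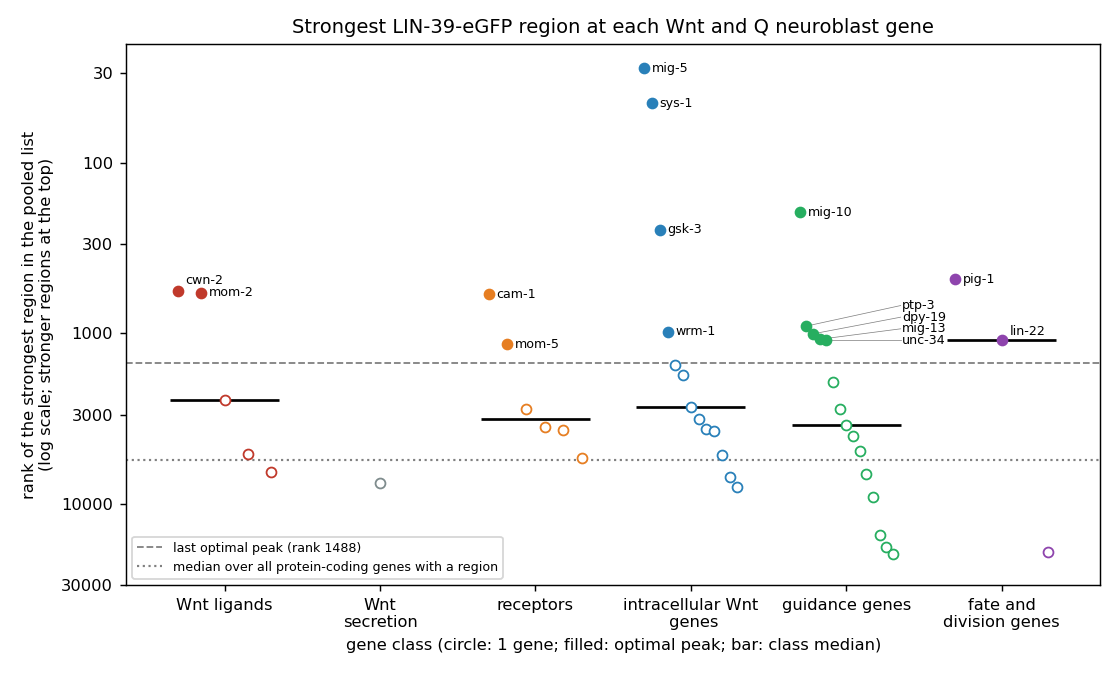
Rank of the strongest pooled region inside or within 5000 bp of each of the 43 genes, by class (log scale, stronger regions at the top). Filled circles are the 15 genes with an optimal summit, black bars are class medians, the dashed line is the last optimal rank (1488) and the dotted line is the median over all protein-coding genes (5501). mig-5 and sys-1 stand highest, and the guidance genes run from 195 to 19750.

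The strongest region of replicate 1 and that of replicate 2 overlapped by at least 1 bp at 19 of the 43 genes (44.2%), against 28.0% of all protein-coding genes. They did so at all 15 genes with an optimal summit. The optimal peaks are the strongest regions of the pooled replicates, from a set thresholded for reproducibility, so this overlap is no separate support. Among the 28 genes without one, they overlapped at 4 (dsh-2, pry-1, mig-2 and ced-10), close to the 13.9% of protein-coding genes without an optimal summit in reach. Across the 43 genes, the best ranks of the replicates had a Spearman rho of 0.72, and across 17244 protein-coding genes with regions in both lists it was 0.65. These values are descriptions, since longer genes hold more regions in both lists.

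**Figure D4:**
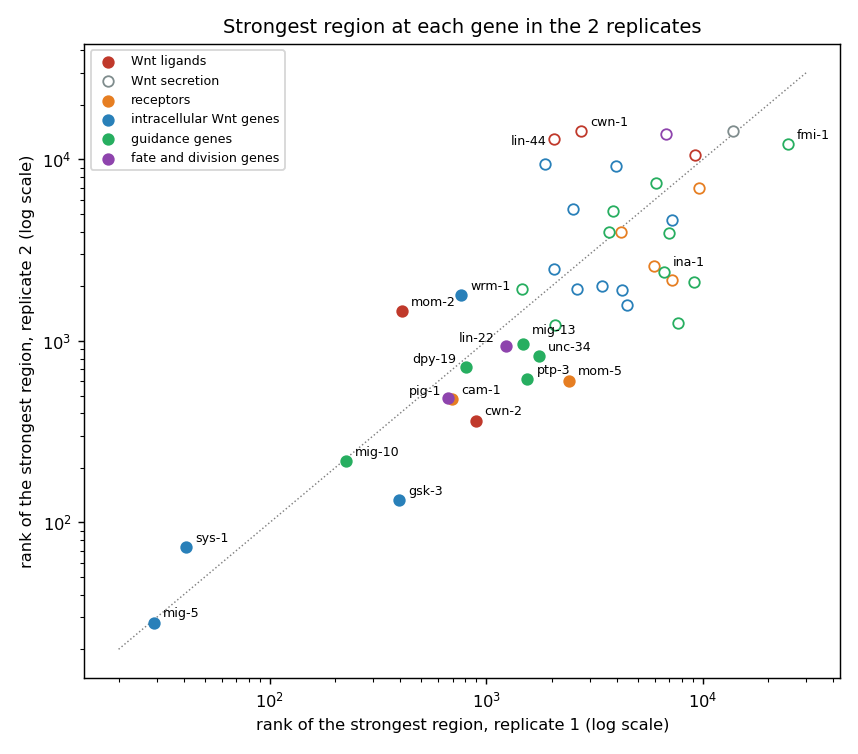
Rank of the strongest region at each of the 43 genes in replicate 1 (horizontal) and replicate 2 (vertical), both on log scales, coloured by class. Filled circles are genes with an optimal summit and the dotted line marks equal ranks. mig-5, sys-1 and mig-10 lie near that line, while lin-44 (2050 in replicate 1 and 12906 in replicate 2) and cwn-1 (2730 and 14331) lie above it.

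Over all 303 pooled regions in reach of the 43 genes, 116 (38.3%) overlapped a region in both replicates, against 35% of the whole pooled list. By class the share was 45.2% at receptor genes, 40.8% at intracellular Wnt genes, 33.1% at guidance genes and 30.8% at ligand genes, beside 58.8% at fate and division genes (10 of 17 regions) and none of 4 regions at mig-14. Counting all 303, the 16 optimal ones included, 145 summits lay in introns, 105 in intergenic sequence, 26 in 3' UTRs and 23 in coding exons. No region of egl-20, cwn-1, cfz-2, kin-19, ina-1, efn-4, fmi-1 or mig-14 overlapped a region in both replicates.

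Sequences known from Hox proteins were counted around the summits. The composite TGATNNAT, bound by Hox proteins with PBC cofactors, stood within 100 bp of 3 of the 16 summits (18.8%), at mom-5, gsk-3 and lin-22, against 17% of all optimal summits. TAATTA stood at 2 (12.5%), mig-13 and lin-22, against 7.8%, and the shorter TAAT, which TAATTA contains, stood at 12 (75%), against 72.8%. The number of TAAT matches per window had a median of 3 at the 16 summits (range 0 to 5) and of 1 at all optimal summits (range 0 to 15). All were sought on both strands. The lin-22 window thus held both longer sequences, and at 24.4% it had the lowest GC content of the 16, whose median was 42.04%, against 40.3% at all optimal summits.

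Other genes of the same processes were counted for comparison, from lists made, like the 43 genes, with earlier results of these data known. Of 14 other Wnt genes, 3 had an optimal summit in reach (21.4%, against 19.4% of all protein-coding genes). mom-1, the Porcupine gene needed for Wnt lipid modification, had the strongest, in an intron 3451 bp from its outer start, with a pooled signal of 362 (rank 20), ranked 15 in replicate 1 and 26 in replicate 2. The others were the lipid phosphatase gene mtm-3 (pooled signal 124, 1113 bp upstream) and egl-27 (76.2, in an intron of the neighbour tbc-6). Of 41 other Q neuroblast and guidance genes, 11 had an optimal summit in reach (26.8%). By pooled signal, the strongest 8 were the WAVE gene wve-1 (275 and 126), the perlecan gene unc-52 (187), the TEAD gene egl-44 (123), the plexin gene plx-1 (90.1), the WAVE complex gene gex-3 (66.7), the CARMIL gene crml-1 (64.8), the papilin gene mig-6 (60.5) and the netrin receptor gene unc-5 (58.98). Only 1 of these 14 genes (mtm-3) and 3 of these 41 (egl-44, plx-1 and gex-3) had their own start nearest to an optimal summit. These are 7.14% and 7.32%, close to the background of 6.89%. By outer start, the summits of the other genes named here lay nearer to another gene, such as atgp-2 for unc-52 and xpa-1 for crml-1. Some were near ties, as at mom-1 (3451 bp, against 3379 bp to cest-16) and the stronger wve-1 summit (629 bp, against 620 bp to R06C1.4). The unc-5 summit lay in an intron of unc-5, 2578 bp from the start of its transcript B0273.4d.1. The start of B0273.1, counted as nearest there, was 12333 bp away.

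mab-5 and lin-39 had no optimal summit in reach. mab-5, the target of Wnt signalling in the left lineage, had its best pooled region 2748 bp upstream (rank 4815). That region had ranks of 6903 in replicate 1 and 15576 in replicate 2. The best regions of the replicates lay elsewhere, in introns of mab-5, with rank 4063 in replicate 1 and 876 in replicate 2. At lin-39 itself, no summit of the 3 ranked lists was in reach. The strain also carries the transgene wgIs18, from which tagged LIN-39 is made. Whether that or anything else left this locus without listed regions was not tested. The lack of regions is therefore no evidence that LIN-39 does not bind its own gene.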

How the data were processed

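ChIP-seq regions of LIN-39-eGFP were analysed in 2 replicates. The authors made each ce11 list from replicate alignments with a control file, per the notes they deposited. Which aligner and peak caller they used is not given in the sources used here. Each list holds the deposited signal of each region, the deposited −log10 q (not used here to rank) and the deposited summit offset in bp, all the authors' values, in tables without headers. Regions were ranked by signal within each list, and the summit was placed from the offset. Genes and transcripts came from Ensembl release 115 on WBcel235, which is ce11. The ce10 lists were not used here. Replicate numbers are those of the labels.

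A gene's start is its outer end. Replicate values at a summit are those of the strongest overlapping region (at least 1 bp), so neighbouring pooled regions can share a replicate region. Replicate 2 listed 1 region with coordinates used before. The best rank of a gene may come from different places in different lists. Analyses used Python 3.11.15, numpy 2.4.6, pandas 2.3.3, scipy 1.17.1 and matplotlib 3.10.9. In simulated data, all 200 summits planted in gene windows were recovered, which checks the window search only and not the sensitivity to binding.

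The members and lists were chosen with earlier results of these data known. By the naming rule, genes with an optimal summit are given in full, and up to 8 genes of each other list. The print of the mig-13 sequence, the TAAT count and the comparison at matched length were added later. Alternatives were flanks of 2000 and 10000 bp, the stronger part of the optimal set, region overlap, single replicates, leaving out X, other start rules, motif windows and merged classes.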

Additional observations from a re-analysis of the deposited data

How the results depend on the processing

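No test was made, so stability refers to counts and ranks. With 15 of 43 genes in the main setting, 10 had an optimal summit with flanks of 2000 bp (12.3% of all protein-coding genes) and 18 with 10000 bp (29%). Among the 744 strongest optimal peaks the count was 8 (18.6%, against 10.8%). Single replicates gave 13 to 16 genes: replicate 1 alone left out mom-5, unc-34 and ptp-3 and added unc-73, and replicate 2 alone left out wrm-1 and added unc-40 and mig-21. With flanks of 2000 bp, ligands had 1 gene, receptors 1 and guidance genes 3, and with 10000 bp guidance genes had 8. Among those 744 peaks, receptors, guidance genes and fate and division genes had 1 each, which for guidance genes is below the 10.8%, and the other Q neuroblast and guidance genes had 4. Receptors had 1 to 2 with single replicates, and 1 of 6 is below the 18.9% of replicate 1. Genes with their own start nearest were 8 in the main setting, 3 with a limit of 2000 bp (6.98%, against 5.48%) and 4 among those 744 peaks (9.3%, against 3.54%). The median best pooled rank of 2783 was 3751 with flanks of 2000 bp, 1888 with 10000 bp and 1999 to 2636 in single replicates. TGATNNAT stood at 1 summit within 50 bp and at 6 within 200 bp, against 9.95% and 29.7% of all optimal summits. The causes were not tested. No paired analysis was possible because there was only 1 group. The Spearman rho between the best ranks of the replicates was 0.72 with flanks of 2000 bp and 0.77 with 10000 bp, so its sign did not turn. Counts and median ranks have no sign to reverse, and shares that fell below the background are given above. Depth is unknown, so it is not shown whether a missing region is absent or too weak to list.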
